A study of Homo sapiens with 6 samples.

Results

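The genes described here are the heat shock proteins, the J-domain proteins named DNAJ and the heat shock factors HSF1 and HSF2, taken by symbol from a table of gene expression in OVCAR3, a cell line of human high-grade serous ovarian cancer. A locus was a member when 1 of its symbols was a numbered DNAJA, DNAJB, DNAJC, HSPA or HSPB gene, HSP90AA1, HSP90AB1, HSP90B1, HSPH1, HSPD1, HSPE1, HSF1 or HSF2. This gave 74 loci of the 47577 in the table, and 64 of them reached a normalised read count of 10 in 3 or more libraries, as did 17568 loci in all. PolyA plus RNA was sequenced from 3 libraries of cells given DMSO, the solvent, and 3 libraries of cells given THZ531, which binds CDK12 and CDK13 covalently and inhibits these kinases of transcription, at 200 nM for 6 h. The sample titles and the treatment entry name THZ531, whereas the text on the treatment names THZ1 at the same dose. Both groups are the same line, grown in the same medium, and no other compound, dose or time was used here.

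Molecular chaperones bind unfolded proteins and help them to fold, to stay soluble or to be degraded. HSP70 proteins (HSPA genes) do so in cycles of ATP hydrolysis that J-domain proteins (DNAJ genes) start and direct to particular clients, HSP110 proteins (HSPH1, HSPA4, HSPA4L) reset by nucleotide exchange, and HSP90 proteins follow with clients such as kinases and receptors. HSF1 is the main activator of the heat shock genes after stress, through repeated short motifs in their promoters called heat shock elements, while a separate pathway controls the chaperones of the endoplasmic reticulum (ER).

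The libraries held 53054048 to 70986130 reads on genes. The members took 2.085%, 2.068% and 2.062% of these reads in DMSO replicates 1 to 3, and 2.437%, 2.409% and 2.384% in THZ531 replicates 1 to 3, so that the groups did not overlap. Of the markers of serous ovarian cells, PAX8 had a mean normalised read count of 11272 in DMSO and 1241 after THZ531, WT1 650 and 579, MUC16 4598 and 3334, EPCAM 21222 and 26194, and KRT7 130310 and 137921. CD3E was at 0 and PTPRC and PECAM1 had means under 100, while COL1A1, a fibroblast marker, went from 995 to 2190; its part in the values below was not tested. In bulk RNA, fewer cells that express a gene and less RNA per cell cannot be told apart.

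Among the 64 members, the called genes of the HSP70, HSP110 and small heat shock protein families were nearly all higher after THZ531, and most called DNAJ genes were lower. A gene was called at a fold change of at least 1.5 with an unadjusted p of at most 0.05, by limma on the log2(value + 1) scale. With this rule 14 members increased (21.9%) and 15 decreased (23.4%), where 15.7% of all 17568 loci tested increased and 23.9% decreased. The share of decreased members was thus close to that of all loci. The median log2 fold change was 0.18 over the members and -0.01 over all loci. In 32 members every THZ531 value lay above every DMSO value and in 18 every one lay below, against 36.0% and 35.7% of all loci. HSPB3 and HSPB6 reached the minimum only through the THZ531 libraries, where they are high, and without them 12 of 62 members increased (19.4%). In the same way DNAJC28, counted among the 15 decreased, reached it only through the DMSO libraries, where it is high. The 25 members that are not DNAJ genes held 10 increased and 1 decreased gene, with a median log2 fold change of 0.49, and the 39 DNAJ genes held 4 increased and 14 decreased genes, with a median of 0.05. The number of increased members depended on how the libraries were scaled: 9 increased and 16 decreased when every library was set to the same total, and 5 and 20 when every library was set to the ribosomal protein gene RPL34. These settings shift log2 fold changes by -0.243 and -0.493, and by less in genes with low counts.

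**Figure D1:**
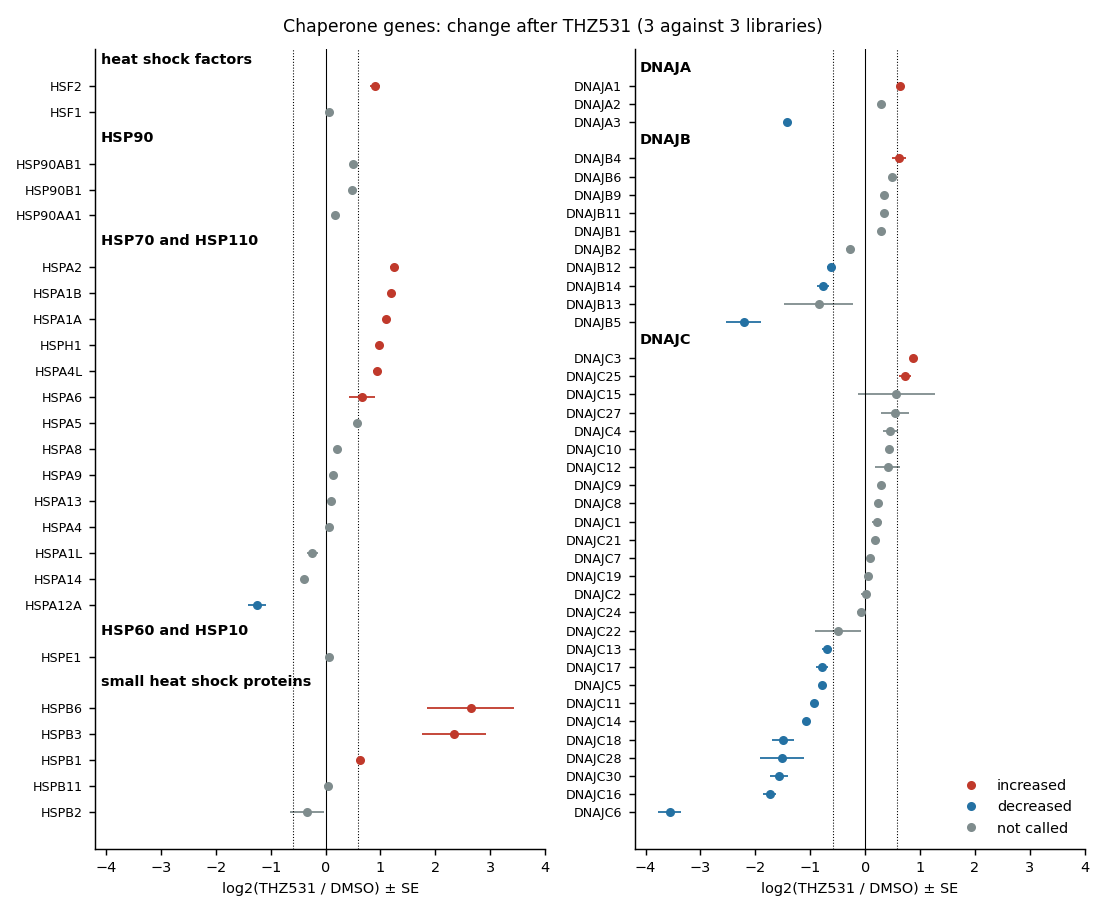
Each point is the log2 fold change (THZ531 over DMSO) of 1 member with its standard error, from 3 libraries a group, ordered within families; dotted lines mark a fold of 1.5. Of the 14 red points, 10 are in the HSP70, small heat shock protein and heat shock factor families and 4 are DNAJ genes, and 14 of the 15 blue points are DNAJ genes, with DNAJC6 farthest to the left at -3.56.

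The 2 heat shock factors differed. HSF2, a factor that can pair with HSF1, had normalised read counts of 557, 496 and 427 in DMSO and 914, 912 and 923 in THZ531. All 3 treated libraries lay above the controls, with a log2 fold change of 0.90 ± 0.09 (SE; limma, Benjamini-Hochberg adjusted p = 3.3e-07). HSF1, the stress-activated factor, had 5993, 6215 and 6336 in DMSO and 6471, 6303 and 6495 in THZ531. These groups overlapped, and HSF1 did not pass the test (log2 fold change 0.06 ± 0.04; limma, adjusted p = 0.22). Within a library, where scaling has no part, the ratio of HSF2 to HSF1 went from 0.0800 ± 0.0127 (SD, n = 3) to 0.143 ± 0.00175.

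HSP90AB1 had the highest level of all members per kb of transcript, 101880 normalised reads in DMSO and 144314 in THZ531. This constitutive cytosolic form had normalised read counts of 262655, 256990 and 261262 in DMSO and 375735, 365265 and 365169 in THZ531. The treated libraries were all higher, by 0.50 ± 0.03 on the log2 scale (limma, adjusted p = 1.2e-09), which is below the fold of 1.5 and so was not called. HSP90AA1, the inducible cytosolic form, went from 220537 ± 5722 (SD, n = 3) to 249059 ± 7297, a log2 fold change of 0.18 ± 0.03 (limma, adjusted p = 3.0e-04), also not called. Scaled to the same total its log2 fold change was -0.07, so its direction rests on the scaling. The ratio of HSP90AA1 to HSP90AB1 within a library was 0.825, 0.848 and 0.869 in DMSO and 0.685, 0.666 and 0.675 in THZ531. The inducible form was thus a smaller part of the pair in each treated library than in any control.

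The cytosolic HSP70 genes that respond to stress rose, and the constitutive one stayed close to its level. HSPA1A, an inducible HSP70 gene of 1 exon on chromosome 6 (hg38, chr6:31815268-31817965, plus strand), had 87258, 88672 and 83754 in DMSO and 193122, 188097 and 175822 in THZ531. HSPA1B, its neighbour at chr6:31827737-31830255 on the same strand, had 58448, 57105 and 54306 against 133512, 132438 and 125104. In both genes the lowest treated library lay far above the highest control. The log2 fold change was 1.10 ± 0.04 for HSPA1A and 1.20 ± 0.04 for HSPA1B (limma, adjusted p = 1.2e-12 and 3.2e-13). The annotated transcripts of the pair share 2312 bases of the 2400 in the shorter one (96.3%), so reads can fit both and the split between the genes is uncertain. HSPA1A also overlaps HSPA1L by 457 nt, and HSPA1L itself was not called (504 to 425, log2 fold change -0.24).

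The rise of this pair was also present within each library. The ratio of HSPA1A to the constitutive HSPA8 was 0.551, 0.560 and 0.513 in DMSO and 1.05, 1.03 and 0.953 in THZ531. HSPA8 itself, which makes the HSC70 protein, had 158236, 158413 and 163235 in DMSO and 183649, 183312 and 184427 in THZ531. These groups did not overlap either, but the log2 fold change was 0.20 ± 0.03 (limma, adjusted p = 2.7e-05), HSPA8 was not called, and scaled to the same total it was -0.04. Per kb of transcript, HSPA1A had 36067 normalised reads in DMSO, the sixth level among the members, and 77367 in THZ531, the third, between HSPA8 (81182) and HSP90AA1 (77156), although HSPA1A and HSP90AA1 were then closer than the libraries of either gene were to each other.

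**Figure D2:**
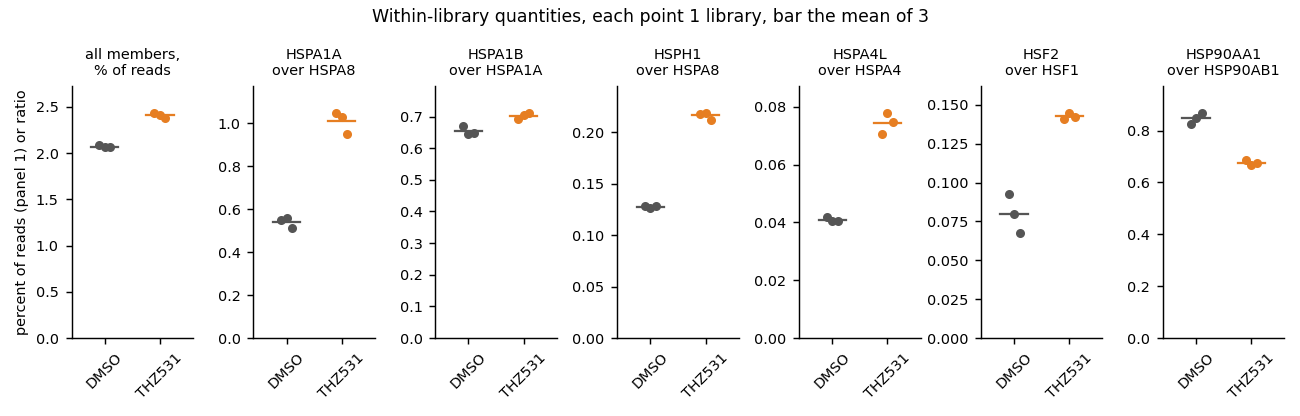
The first panel gives the percent of all gene reads that fell on the members, and the other panels give ratios of normalised read counts between 2 members of the same library; grey points are the 3 DMSO libraries, orange points the 3 THZ531 libraries, bars the means, and each axis starts at 0. HSPA1A over HSPA8 rises from 0.541 to 1.01 on average and HSP90AA1 over HSP90AB1 falls from 0.847 to 0.675, with no overlap of the groups in any panel.

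The promoter windows of this pair are shown because these genes rose most among the members with a DMSO mean of at least 10000. They are the 250 bases before and 50 after the RefSeq start (GRCh38.p14, plus strand), at chr6:31815293-31815592 for HSPA1A and chr6:31827488-31827787 for HSPA1B, with capitals on a heat shock element of 2 units, GAANNTTC. The windows share 277 identical bases of 301 aligned (92%), and the element begins 106 bases before the start in HSPA1A and 105 in HSPA1B.
HSPA1A: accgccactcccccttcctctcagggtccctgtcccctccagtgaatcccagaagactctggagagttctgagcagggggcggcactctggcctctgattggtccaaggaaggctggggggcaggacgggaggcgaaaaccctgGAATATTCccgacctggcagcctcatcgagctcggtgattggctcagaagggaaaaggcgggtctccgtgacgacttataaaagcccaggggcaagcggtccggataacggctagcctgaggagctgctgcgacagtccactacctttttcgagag
HSPA1B: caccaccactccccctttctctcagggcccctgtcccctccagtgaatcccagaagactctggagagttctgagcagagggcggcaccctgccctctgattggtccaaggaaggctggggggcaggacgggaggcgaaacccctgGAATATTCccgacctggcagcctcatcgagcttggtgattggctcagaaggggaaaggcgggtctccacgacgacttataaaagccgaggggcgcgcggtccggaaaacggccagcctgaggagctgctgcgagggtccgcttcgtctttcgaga

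Over the 65 members with a promoter window, a 2-unit element, GAANNTTC or TTCNNGAA on either strand, was in 22 (33.8%), and in 16.2% of all 27305 symbols. It was in 9 of the 14 increased members with a window, 1 of the 15 decreased and 8 of the 29 not called. The 9 include HSPB3 and HSPB6, which reached the minimum only through the THZ531 libraries. Its share among all increased or all decreased loci was not computed, so this split cannot be set against them. A 3-unit element, GAANNTTCNNGAA, which contains 2-unit ones, was in 7 members and in 0.608% of all symbols. It was in increased members (HSPA6 and DNAJA1) and in members that were not called (HSP90AB1, HSP90AA1, HSPA8 and DNAJB6), as well as in HSPD1. The motifs were chosen with the values known, and a match is a description of these letters only. The 3-unit elements of expressed members are shown with 10 bases on either side and capitals on the element (RefSeq, GRCh38.p14), because both called and uncalled genes carry one. Where a gene has more than 1, the one nearer the start is given.
HSPA6, chr1:161524456-161524488, plus strand: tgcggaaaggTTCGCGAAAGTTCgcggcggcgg
DNAJA1, chr9:33025266-33025298, plus strand: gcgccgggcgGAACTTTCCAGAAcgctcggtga
HSP90AB1, chr6:44247821-44247853, plus strand: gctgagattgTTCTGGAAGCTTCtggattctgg
HSP90AA1, chr14:102087110-102087142, minus strand: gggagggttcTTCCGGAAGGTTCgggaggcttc
HSPA8, chr11:123062169-123062201, minus strand: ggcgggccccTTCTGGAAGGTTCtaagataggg
DNAJB6, chr7:157336863-157336895, plus strand: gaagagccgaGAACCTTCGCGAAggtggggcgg

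Some other HSP70 and HSP110 genes rose as well. HSPA2, an HSP70 gene best known from the testis, had 1034, 1165 and 1062 in DMSO and 2617, 2554 and 2528 in THZ531. That is a log2 fold change of 1.24 ± 0.06 (limma, adjusted p = 3.9e-11), the highest of the family, with no overlap. HSPH1, the HSP110 protein HSP105, had 20182, 19919 and 20871 in DMSO and 39957, 40085 and 39099 in THZ531, and rose by 0.97 ± 0.03 on the log2 scale (limma, adjusted p = 9.1e-13). HSPA4L, another HSP110 gene, rose from 838 ± 12.4 (SD, n = 3) to 1593 ± 36.4, by 0.93 ± 0.06 (limma, adjusted p = 1.5e-09). The closely related HSPA4 stayed at 20503 in DMSO and 21453 in THZ531, a log2 fold change of 0.07 that did not pass the test. The ratio of HSPA4L to HSPA4 within a library went from 0.0409 ± 0.000866 (SD, n = 3) to 0.0743 ± 0.00368. HSPA14 was lower without overlap, from 1778 to 1360 (log2 fold change -0.39; limma, adjusted p = 1.4e-05), and was not called. HSPA13 had overlapping groups and a log2 fold change of 0.10.

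HSPA6, which is silent in most unstressed cells and strongly induced by heat, was low. It had 81.0, 59.4 and 63.0 in DMSO and 146, 86.4 and 95.6 in THZ531. The groups did not overlap, but the highest control lay close to the lowest treated library. Its log2 fold change was 0.66 ± 0.24 (limma, adjusted p = 0.025), and without THZ531 replicate 1 it was 0.43 and without DMSO replicate 2 it was 0.57, both below the fold of 1.5, as were 0.42 and 0.17 when scaled to the same total and to RPL34. HSPA12A, a distant relative of HSP70, was the only decreased member without a J domain. It had 274, 307 and 220 in DMSO and 98.2, 113 and 122 in THZ531, a log2 fold change of -1.25 ± 0.17 (limma, adjusted p = 5.3e-06). A locus with no symbol inside it (chr10:116828775-116830969) went the same way, from 135 ± 11.2 (SD, n = 3) to 81.3 ± 15.6 (log2 fold change -0.74, adjusted p = 0.0043 by limma). It is 1 of 8 loci without a symbol inside members that reached the minimum. The one inside DNAJC7 (97.5 in DMSO and 83.4 in THZ531) was not called, at -0.24 where DNAJC7 was at 0.09. The remaining ones had lower counts and are not described.

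Small heat shock proteins hold unfolded proteins without ATP. Among the members with an HSPB symbol, HSPB1 (HSP27) had the highest level per kb of transcript, 39211 normalised reads in DMSO. The next of them was HSPB11 at 1641, a gene now named IFT25 that is grouped here by its older symbol only. CRYAB, which the rule on symbols left out, is not part of this ranking. HSPB1 had 31620, 31461 and 28320 in DMSO and 47379, 46288 and 46359 in THZ531, and every treated library was higher. The log2 fold change was 0.62 ± 0.04 (limma, adjusted p = 1.4e-09), and it was below the fold of 1.5 without DMSO replicate 3 (0.57) and when scaled to the same total (0.37) or RPL34 (0.12). HSPB6 (HSP20) had 15.9, 5.57 and 0 in DMSO and 31.5, 22.7 and 34.1 in THZ531, and HSPB3 had 1.59, 10.2 and 11.2 against 37.8, 33.0 and 34.1. Both genes passed the minimum only because they were high after THZ531, so their values are a description, and no test is given. Their log2 fold changes of 2.64 and 2.34 rest on single libraries: HSPB6 was at 1.51 without DMSO replicate 3 and 3.55 without DMSO replicate 1, and HSPB3 was at 1.62 without DMSO replicate 1. HSPB2 lies wholly within the CRYAB locus, on the other strand. Its counts (51.3 to 40.3) cannot be separated from those of CRYAB if counting ignored strand, and it was not called.

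The mitochondrial chaperones held no increased member. HSPE1, the mitochondrial HSP10, had 28181 ± 1383 (SD, n = 3) in DMSO and 29368 ± 1341 in THZ531, with overlapping groups and a log2 fold change of 0.06 ± 0.04 (limma, adjusted p = 0.21). HSPA9 (mortalin), the mitochondrial HSP70, had 26447 ± 702 and 29036 ± 880, a log2 fold change of 0.13 ± 0.03 (limma, adjusted p = 0.0027), and was not called. HSPD1, the HSP60 partner of HSPE1, is listed at 0 in all 6 libraries although cells commonly use it, so nothing can be said of it. Of the 9 mitochondrial members that reached the minimum, none increased and 4 decreased (44.4%, against 23.9% of all loci), all of them J-domain genes. DNAJA3 (TID1), which works with HSPA9, had 4072, 4075 and 3881 in DMSO and 1476, 1391 and 1644 in THZ531. It fell by 1.42 ± 0.06 on the log2 scale (limma, adjusted p = 9.7e-12). DNAJC11, found at the contacts of the mitochondrial membranes, had 14762, 15252 and 15586 against 7898, 7715 and 8157, a log2 fold change of -0.94 ± 0.04 (limma, adjusted p = 5.3e-12). DNAJC30, tied to repair of respiratory complex I, went from 588 to 203 (log2 fold change -1.57), and DNAJC28 from 41.0 to 13.8 (-1.51). DNAJC28 had 16.4, 15.9 and 9.10 in THZ531, so it reached the minimum only through the DMSO libraries. Its value is a description, although it counts among the 4 decreased.

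HSPA5 (BiP), the ER HSP70, had 44869, 43159 and 43223 in DMSO and 65489, 65331 and 65680 in THZ531. The log2 fold change of 0.58 ± 0.03 (limma, adjusted p = 1.3e-10) fell just short of the fold of 1.5, so HSPA5 was not called, and it was 0.60 and called without DMSO replicate 1. HSP90B1 (GRP94), the ER form of HSP90, went from 68163 ± 1096 (SD, n = 3) to 95436 ± 2245, a log2 fold change of 0.49 ± 0.03 (limma, adjusted p = 1.5e-09), not called and at -0.01 when scaled to RPL34. DNAJC3 (P58IPK), an ER J-domain protein, rose from 2802, 2708 and 2841 to 5231, 5083 and 5067, by 0.88 ± 0.04 on the log2 scale (limma, adjusted p = 5.0e-11). DNAJC25 rose from 321 ± 33.1 (SD, n = 3) to 529 ± 37.3, by 0.72 ± 0.11 (limma, adjusted p = 1.8e-05), and was below the fold of 1.5 when scaled to the same total (0.48) or RPL34 (0.23). The other J-domain proteins taken here as ER proteins split. DNAJB9 (ERdj4), DNAJB11 (ERdj3) and DNAJC10 (ERdj5) were higher but not called, with log2 fold changes of 0.35, 0.34 and 0.43. DNAJC1 was at 0.22, whereas DNAJC16, DNAJC18, DNAJB14 and DNAJB12 decreased. DNAJC16 fell most, from 779 ± 38.1 to 235 ± 42.9 (log2 fold change -1.74 ± 0.12; limma, adjusted p = 3.7e-09). Its locus overlaps AGMAT by 16850 nt.

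Of the members with a promoter window, HSPA5 and HSP90B1 alone carry the ER stress element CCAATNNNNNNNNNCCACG, which was in 0.0916% of all 27305 symbols. HSPA5 is shown (GRCh38.p14, chr9:125241294-125241593, minus strand), as is HSP90B1 (chr12:103930160-103930459, plus strand), with capitals on the element, which HSP90B1 has on both strands. Neither gene was called.
HSPA5: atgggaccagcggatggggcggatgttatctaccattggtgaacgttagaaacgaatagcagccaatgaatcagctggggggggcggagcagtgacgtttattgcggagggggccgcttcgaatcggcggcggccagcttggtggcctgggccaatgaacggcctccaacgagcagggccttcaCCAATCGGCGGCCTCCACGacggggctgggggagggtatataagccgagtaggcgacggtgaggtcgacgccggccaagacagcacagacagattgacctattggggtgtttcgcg
HSP90B1: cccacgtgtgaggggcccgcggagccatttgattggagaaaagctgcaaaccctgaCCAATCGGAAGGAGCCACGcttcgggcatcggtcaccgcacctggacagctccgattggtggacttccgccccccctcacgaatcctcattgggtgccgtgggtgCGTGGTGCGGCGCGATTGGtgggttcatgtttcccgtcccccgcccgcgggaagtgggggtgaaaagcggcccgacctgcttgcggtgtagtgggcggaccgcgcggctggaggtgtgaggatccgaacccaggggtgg

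The cytosolic J-domain genes that work with HSP70 rose only in part. DNAJA1, which works with HSPA8, had 23139, 23296 and 24216 in DMSO and 37389, 36268 and 36316 in THZ531. Every treated library was higher, by 0.64 ± 0.03 on the log2 scale (limma, adjusted p = 8.9e-11), but DNAJA1 was below the fold of 1.5 when scaled to the same total (0.40) or RPL34 (0.15). DNAJB1 (HSP40), the stress-induced partner of HSP70, had 5127, 5185 and 5366 against 6383, 6481 and 6283. These groups did not overlap, but the log2 fold change of 0.29 ± 0.04 (limma, adjusted p = 6.7e-06) was not called, and it was -0.20 when scaled to RPL34. DNAJB4, a relative of DNAJB1, rose from 286 ± 21.8 (SD, n = 3) to 440 ± 75.1 (log2 fold change 0.61 ± 0.13; limma, adjusted p = 5.2e-04), and was below the fold of 1.5 without THZ531 replicate 2 (0.48) or DMSO replicate 2 (0.55), and when scaled to the same total (0.37) or RPL34 (0.12). DNAJB5, a further relative, went the other way, from 80.8 ± 13.4 to 16.8 ± 4.23, a log2 fold change of -2.21 ± 0.32 (limma, adjusted p = 1.3e-05). DNAJB6, known for holding back protein aggregates, had a log2 fold change of 0.49 and was not called.

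DNAJC6 (auxilin), which uncoats clathrin vesicles, changed most of all members. It had 780, 700 and 695 in DMSO and 59.2, 40.9 and 91.0 in THZ531. Its mean in DMSO was 725 and in THZ531 63.7, a log2 fold change of -3.56 ± 0.21 (limma, adjusted p = 5.2e-10). GAK, the related auxilin that most cells use, was no member of the list and stayed at 1694 and 1609 (log2 fold change -0.07). The DNAJC6 locus spans 161410 nt at chr1:65254462-65415871 on the plus strand, and the annotated transcript used here, of 19 exons, spans 106329 nt.

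Several further J-domain genes decreased by less than DNAJC6. DNAJC5, the cysteine string protein of secretory vesicles, went from 8771 ± 260 (SD, n = 3) to 5061 ± 140 (log2 fold change -0.79 ± 0.04; limma, adjusted p = 7.6e-11). DNAJC14 fell from 1181 to 562 (-1.07), DNAJC18 from 233 to 82.4 (-1.50), DNAJC17 from 457 to 264 (-0.78), and DNAJC13 (RME-8), which acts on endosomes, from 986 to 612 (-0.69). The DNAJC14 locus overlaps ORMDL2 (log2 fold change -0.26) and TMEM198B (-0.96). That of DNAJC17 overlaps GCHFR (0.13), C15orf62 (-0.03) and ZFYVE19 (-1.12). The part of these overlaps in the values was not tested. DNAJB14 and DNAJB12 fell by 0.76 and 0.62 on the log2 scale, and DNAJB12 was below the fold of 1.5 without THZ531 replicate 1 (-0.56) or DMSO replicate 2 (-0.57). By contrast, DNAJC2 and DNAJC21, which act at ribosomes, DNAJC8, a spliceosome protein, and DNAJC9, a histone chaperone, were not called, with log2 fold changes of 0.01, 0.18, 0.23 and 0.29. DNAJC7, a partner of HSP70 and HSP90, had overlapping groups, and its log2 fold change was 0.09.

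**Figure D3:**
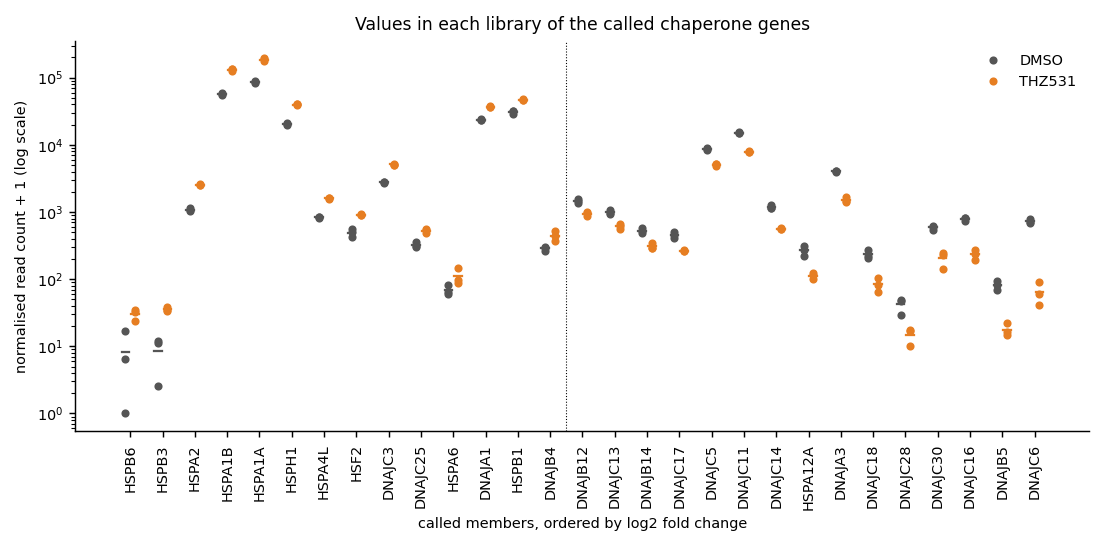
Normalised read counts plus 1 (log axis) of the 29 called members in each library; grey points are the 3 DMSO libraries, orange points the 3 THZ531 libraries, short bars the means, and the dotted line parts the 14 increased genes (left) from the 15 decreased genes (right). The groups are apart in every gene, by most in DNAJC6 and by least in HSPA6 and DNAJB4.

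A further 57 genes of the chaperone system that the rule on symbols left out were taken from a list of co-chaperones, chaperonins and other stress proteins, all of them expressed. Of these, 6 increased and 2 decreased, 10.5% and 3.51% against 15.7% and 23.9% of all loci, with a median log2 fold change of 0.22. Only 2 of them increased with every library set to the same total. BAG3, a stress-induced nucleotide exchange factor of HSP70, rose from 3747 ± 101 (SD, n = 3) to 7416 ± 124 (log2 fold change 0.98 ± 0.04; limma, adjusted p = 7.2e-12), and SUGT1, an HSP90 co-chaperone, rose by 0.98 as well. BAG2, BAG4 and the prefoldin subunit VBP1 rose by 0.65, 0.64 and 0.62, and BAG4 was below the fold of 1.5 without THZ531 replicate 2 (0.56). HSCB, the J-domain protein of iron-sulfur cluster assembly, fell by 1.08, and TTC4 by 0.64, with -0.58 and no call without DMSO replicate 3. The HSP90 co-chaperones STIP1, AHSA1 and CHORDC1 were not called (log2 fold changes of 0.18, 0.34 and 0.44), and neither was SEC63 (0.49). With the deposited scaling all 8 subunits of the TRiC chaperonin were above 0, between 0.03 and 0.37 with a median of 0.24, and none was called. Over all loci 49.7% were above 0. All 8 subunits had a DMSO mean of at least 10000, and 81.3% of all loci at that level were above 0, with a median of 0.29.

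Genes known to be induced by heat were taken as a group, from a list chosen with earlier results of these data known. Of 15 such genes, 14 reached the minimum, 7 increased (against 15.7% of all loci) and none decreased (against 23.9%), with a median log2 fold change of 0.53. Of 16 core chaperone genes, 15 reached the minimum, 6 increased (40.0%) and none decreased. All 15 were above 0 with the deposited scaling, against 49.7% of all loci. Each list has HSPA1B as its highest gene, at 1.20, so the lists overlap and their shares are a description. Highly expressed genes as a whole leaned the same way. Among the 990 loci with a DMSO mean of at least 10000, 10.6% increased and 4.14% decreased. Of these loci 81.3% were above 0, and the median log2 fold change was 0.29. Few decreased genes are thus the rule at that level. Among the 15 members at that level, 5 increased and 1 decreased, with a median of 0.49. Set to the same total, the core genes HSF1, HSP90AA1, HSPA8, HSPA9 and HSPE1 fell below 0, whereas HSPA1A, HSPA1B, HSPA2, HSPH1, HSPA4L, HSF2, DNAJC3, HSPB3 and HSPB6 stayed increased.

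**Figure D4:**
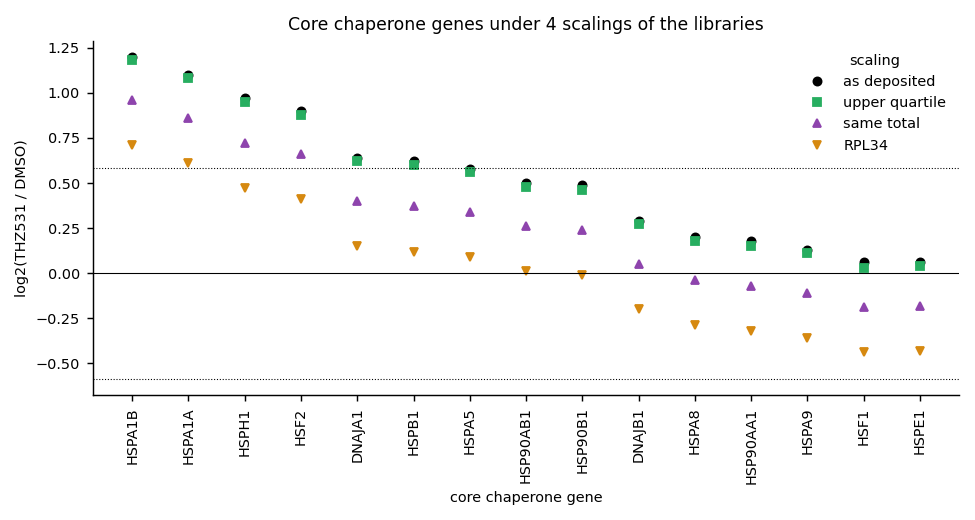
Log2 fold change of the 15 expressed core chaperone genes with the values as deposited (circles) and with every library set to the same upper quartile (squares), the same total (upward triangles) or RPL34 (downward triangles); dotted lines mark a fold of 1.5. A scaling moves the genes together, and HSPA1B and HSPA1A alone stay above the upper line under all 4.

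The length of a gene was set beside its change. Over the 64 members Spearman's rho between the length of the locus and the log2 fold change was -0.25, and over all 15278 loci with a symbol it was -0.06, given as a description across genes, which are not independent replicates. The median length was 10984 nt in the 14 increased members, 40905 nt in the 15 decreased and 20048 nt in the 35 not called. The 6 members of 1 exon held 5 that increased (HSPA1A, HSPA1B, HSPA2, HSPA6 and HSPB3) and 1 that decreased (DNAJC30), with a median of 1.15. Of these, HSPB3 reached the minimum only through the THZ531 libraries, where it is high. Reads can also fit both HSPA1A and HSPA1B, so the pair does not give separate observations. The count and the median are therefore a description. All 327 expressed genes of 1 exon had a median of 0.23, and 33.9% of them increased. Long increased genes were found too, as DNAJC3 spans 117850 nt.

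**Figure D5:**
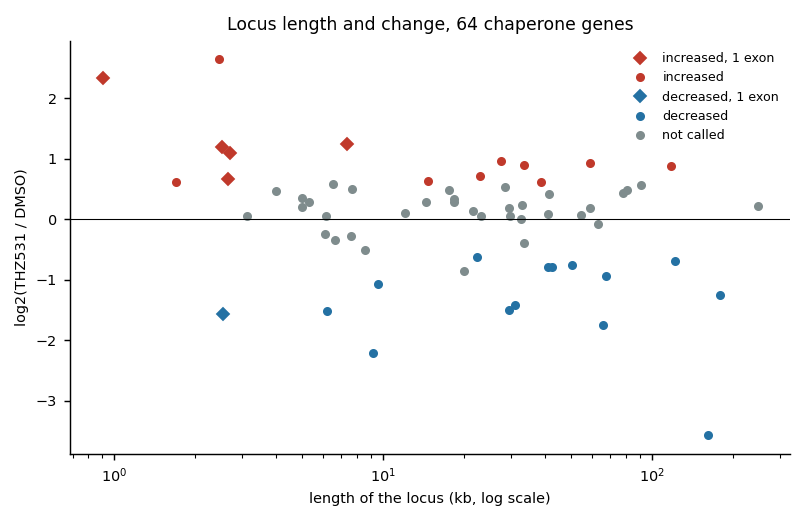
Length of the locus in kb (log axis) against the log2 fold change of the 64 members; diamonds are genes of 1 exon, circles genes with more, red increased, blue decreased and grey not called. Of the 6 diamonds, 5 are red and lie at the short end, and the longest blue loci are HSPA12A and DNAJC6. The red diamond of HSPB3 is a gene that reached the minimum only through the THZ531 libraries.

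The 10 members under the minimum were HSPD1, HSPA7, HSPA12B, HSPB7, HSPB8, HSPB9, DNAJA4, DNAJB3, DNAJB7 and DNAJB8. HSPB9 had 10.1, 6.82 and 25.0 in THZ531 and a mean of 2.30 in DMSO, and was not tested. DNAJB3, DNAJB7 and DNAJB8 were at 0 in all 6 libraries. Of the expressed members, DNAJB13, DNAJC15 and DNAJC22 also had low counts with means under 100, overlapping groups and no call. A total of 17 expressed members overlap another named expressed locus, and their reads cannot be parted if counting ignored strand.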

How the data were processed

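Reads were aligned by the authors (STAR, 2.7.5a in the submitters' processing notes, build hg38), assigned to FAST DB genes with featureCounts, and deposited as a signal that is never negative, the read count divided by a DESeq2 size factor per library. It is not corrected for gene length. All values (100.0% per library, within 0.01 of a read) were multiples of the worth of 1 read, and the reads were recovered from them; edgeR 4.0.16 and DESeq2 1.42.0 were run on them as alternatives. Whether counting used strand is not given in the sources used here.

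The members and the gene lists were chosen with earlier results of these data known. All 17568 loci at 10 or more in at least 3 libraries were tested with limma 3.58.1 (trended variance, two-sided) in R 4.3.3 on log2(value + 1), without covariates, and p-values were adjusted by the Benjamini-Hochberg method over all of them. Adjusted p-values printed beside each gene come from this fit. Every fold change is the difference of group means of log2(value + 1), which for genes with low counts depends on the pseudocount and on single libraries. Nothing in the labels says that the libraries are separate cultures, so p-values measure the spread between these libraries. Replicates differed by more than sampling noise. With 3 against 3 libraries, a permutation test of a single gene cannot go below 0.1, so none was used.

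In simulated counts of 17310 genes, 200 of them changed 3-fold between THZ531 and DMSO, limma called 199 (99.5%) and 0.538% of the unchanged genes. Only a 3-fold change was simulated, so the share called is no guide to members whose change lies near the fold threshold. In the data 39.5% of all loci tested were called, a far larger share than was changed in the simulation. The rate of 0.538% therefore cannot be carried over to the data. Statistics are given in full for called members and 16 core genes, other members by counts and range, and co-chaperones only where called or on a short list of names. One co-chaperone gene that enters the counts is not reported here by itself. Promoter sequences are from RefSeq (GRCh38.p14). Positions, exon numbers and transcript lengths were taken from the table and from GENCODE v44 (one transcript per gene, Python 3.11.15). Alternatives changed the pseudocount, the minimum, the scaling, the threshold, the replicate block, the test and the libraries used.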

Additional observations from a re-analysis of the deposited data

How the results depend on the processing

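The 5 counts and medians and 51 named genes were computed under 19 other settings, giving 966 values for the genes, of which 892 kept their direction and their side of the threshold, 57 were weaker, 1 stronger and 16 reversed. Scaled to the same total, 9 members increased and the median log2 fold change was -0.07, and 2 co-chaperone genes increased; scaled to RPL34, which itself rose by 0.49 on the log2 scale, 5 members increased, the median was -0.32, and 0 co-chaperone genes increased and 10 decreased by limma. These scalings shift log2 fold changes by -0.243 and -0.493, and by less in HSPB3 and HSPB6, whose counts are low. A fold change of 2 left 5 members increased and 9 decreased, and 0 co-chaperone genes increased and 1 decreased by limma, since fewer genes reach it. Leaving out 1 library gave 12 to 16 increased and 14 to 15 decreased members, medians of 0.16 to 0.20, and 5 to 6 increased and 2 to 3 decreased co-chaperone genes. The genes that turned negative with the same total and with RPL34 were HSF1 (-0.19 and -0.44), HSP90AA1 (-0.07 and -0.32), HSPA8 (-0.04 and -0.29), HSPA9 (-0.11 and -0.36), HSPE1 (-0.18 and -0.43) and STIP1 (-0.06 and -0.31), and with RPL34 alone HSP90B1 (-0.01), DNAJB1 (-0.20), AHSA1 (-0.16) and CHORDC1 (-0.05). With the replicate number as a block 14 members increased and 15 decreased, and the same 29 members were called by limma with and without it; the deviations of same-numbered libraries correlated at 0.002, 0.019 and -0.039, none above 0.1, and not every library correlated best with its own number. edgeR and DESeq2 each called the same 29 members. HSPB6 alone was not called by limma without a trend, and its log2 fold change was 3.80 and 1.30 with pseudocounts of 0.1 and 10 and 1.99 by edgeR. Depth limits HSPB3, HSPB6, HSPA6, DNAJB5 and DNAJC28, whose DMSO means lie under 100.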
